A study of Triticum aestivum with 12 samples.

Results

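A set of 27 wheat genes without a description was at or near 0 in the shoots of salt-treated plants and clearly read in the shoots of control plants. The genes were chosen from the 83486 genes of the deposited table by their shoot values alone. A gene was taken when all 3 salt-treated shoot libraries held a normalized count of at most 3, all 3 control shoot libraries held 20 or more, and none of the 4 deposited comparison tables gave it a description. Genes that met the same limits in roots were to be dropped, and 0 were. In all, 29 genes met the limits in shoots and 27 of them (93.1%) had no description, while 79.3% of the 24878 genes in the comparison tables had none. All 27 are listed as protein-coding genes with a position. Because the difference between salt-treated and control shoots chose them, that difference is described here and not tested, and the roots are the measurement that the choice did not use.

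The groups were salt-treated shoots, control shoots, salt-treated roots and control roots of the Najran cultivar, with 3 libraries each. Salt-treated plants received a 200 mM NaCl solution and controls received tap water (0 mM) for 4 weeks from germination, and each library came from a pool of 2 plants. All plants shared the same cultivar, soil mix and light and temperature regime. The paper states that both organs came from the same plants, so the root libraries are not a separate set of plants. The whole organ was taken, so a lower count can mean fewer cells of a type or less RNA per cell, which cannot be told apart.

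A salt solution around the root makes water harder to take up and loads the leaves with sodium and chloride. Shoots are known to slow their growth and to alter many transcripts under such conditions. Wheat genes often stand in rows of neighbouring copies that arose by duplication, and in bread wheat a gene commonly has counterparts on the A, B and D genomes. A gene without a description has no protein family or name in the tables, so the 27 genes are described by their levels, their place and their neighbours, and no role is given to any of them. No sequence of these genes was at hand, so neighbours are described by place, and whether any of them are copies was not examined.

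The normalized counts are estimates of reads per gene, divided by a factor of the authors that differs slightly between genes. In the low range 1 read was worth about 1.23, 1.23 and 1.07 in the salt-treated shoot libraries and 1.63, 0.951 and 1.06 in the control shoot libraries. Between 78.1% and 93.9% of the values below 20 such steps lay within 0.05 of a whole step, depending on the library, so the values are close to reads but are not whole reads. The limit of 3 in salt-treated shoots thus stands for at most 2 reads. The normalized counts summed to 18565098 to 19748450 in salt-treated shoots, 20513240 to 25371113 in control shoots, 13890189 to 14183797 in salt-treated roots and 14878135 to 15863307 in control roots. The organ labels fitted the leaf genes. The 122 genes described as chlorophyll a-b binding, photosystem or Rubisco proteins summed to 865107 to 1043967 in salt-treated shoots and 991466 to 1699554 in control shoots, against 599 to 711 in salt-treated roots and 709 to 2507 in control roots. A list of Casparian strip proteins, meant as the root marker, matched 0 genes. In shoots 29 genes described as histones, cyclins or replication factors, known from dividing cells, summed to 6412 to 7053 under salt and 6874 to 7675 in controls. A flower and seed list of 14 genes was picked by description words alone, such as MADS, MOTHER of FT and globulin. It summed to 566 to 720 in shoots under salt and 588 to 848 in control shoots. The part of these lists in the values below was not tested.

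**Figure D1:**
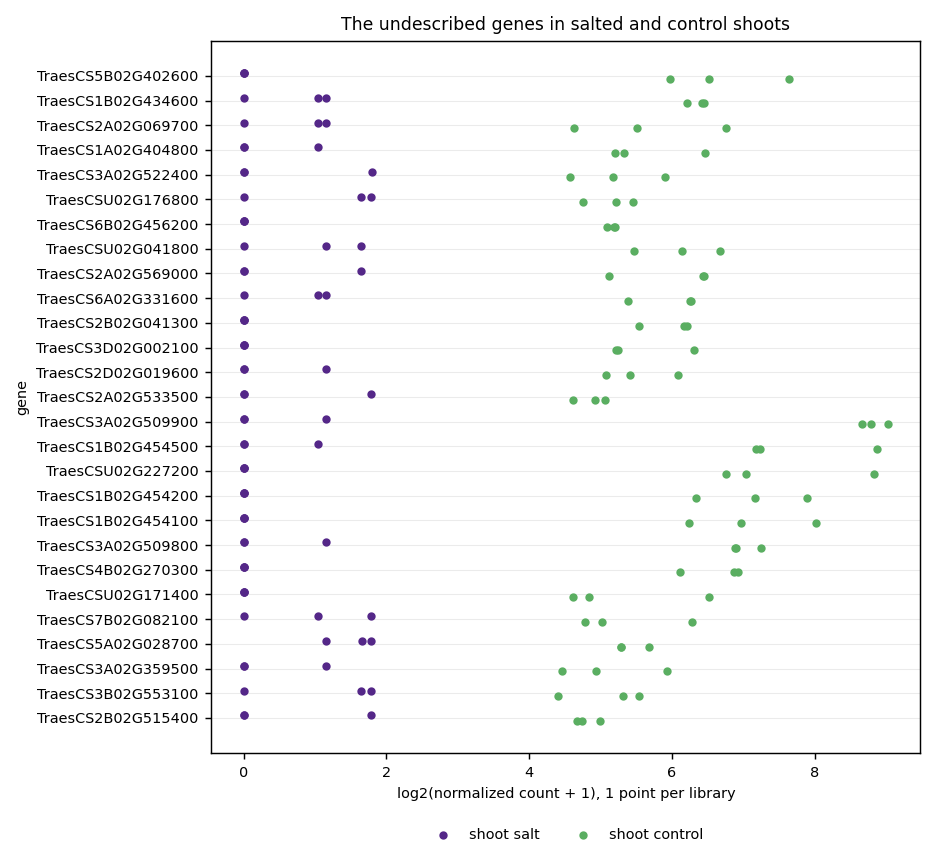
Normalized counts of the 27 genes in shoots as log2(normalized count + 1), with 1 point per library, 3 salt-treated libraries (purple) above 3 control libraries (green) in each row. Every salt-treated point lies at or under 3 and every control point at or over 20, which is how the genes were chosen. Rows run from the 7 genes near 0 in roots at the top, through 7 with low root values, to the 13 tested in roots.

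In shoots, 9 of the 27 genes were at 0 in all 3 salt-treated libraries, 10 were at 0 in 2 of them, 7 in 1 and 1 in none. Summed over the 3 libraries, the highest remainder was about 5 reads, for TraesCS5A02G028700, which was listed at 2.46, 1.23 and 2.15. The means of the control shoots ran from 27.0 to 456 normalized counts with a median of 58.6. Normalized counts are not corrected for gene length, so these means do not rank the genes by transcript number. For the 9 genes at 0, the control mean divided by a floor of 3 counts per library gives a bound on the decrease of that mean. The spread of the control libraries is not in the bound, and for TraesCSU02G227200 they held 456, 130 and 107. That bound was at least 77.0-fold lower for TraesCSU02G227200, at least 50.9-fold for TraesCS1B02G454200 and at least 50.7-fold for TraesCS1B02G454100. It was at least 39.0-fold lower for TraesCS5B02G402600, 33.9-fold for TraesCS4B02G270300, 21.1-fold for TraesCS2B02G041300, 16.8-fold for TraesCS3D02G002100, 15.8-fold for TraesCSU02G171400 and 11.6-fold for TraesCS6B02G456200. All 27 genes were called lower in shoots by limma, where 2.99% of the 44647 genes tested were, and nothing is read from that count because the rule used this contrast.

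The genes nearest the limits show how fine the choice is. Just inside the control limit were TraesCS3B02G553100, with 39.0, 45.7 and 20.1 in control shoots, TraesCS3A02G359500, with a lowest value of 21.0, and TraesCS3A02G522400, with 22.9. TraesCS3A02G373700, just outside it, held 2.47, 2.47 and 1.09 under salt and 19.6, 22.0 and 30.6 in controls. On the salt side, TraesCS3A02G522400 was inside with 2.47, 0 and 0 under salt, while TraesCS2A02G571000 was outside with 1.23, 0 and 3.20 under salt and 101, 232 and 105 in controls. The number of genes moved with the limits. It was 54 with a limit of 5 in salt-treated shoots and 61 with a limit of 10 in control shoots. Applied without shoot salt replicate 2 the rule took 43 genes, and without shoot salt replicate 3 it took 53. Leaving out a library can only add genes, so these counts do not show that the 27 are stable.

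The 3 control shoot libraries did not stand level. Control replicate 1 held the highest value of 20 of the 27 genes (74.1%), replicate 2 of 5 and replicate 3 of 2. Over the 27276 genes with a control mean between 27.0 and 456, replicate 1 was the highest in 42.3%. The value in replicate 1 was 1.43 times the mean of replicates 2 and 3 at the median of the 27 genes, against 1.03 over the genes of that range. The highest control library exceeded the lowest 2.27-fold at the median, against 1.44-fold over the genes of that range. The extremes were TraesCS2A02G069700, with 1.23, 0 and 1.07 under salt and 107, 23.8 and 44.6 in the controls, and TraesCS6B02G456200, with 0 in every salt-treated library and 36.0, 35.4 and 33.0 in the controls. Control shoot replicate 1 was also the library in which 1 read was worth most and the normalized total was highest. Of all libraries it had the fewest mapped reads in the paper, and its RNA had the lowest integrity number in the paper's quality report. The part of that library in the levels was not tested. Without it the rule took 31 genes.

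The roots divided the 27 genes. In 7 of them every root library lay at or under 3, in another 7 the root values were low, with fewer than 3 of the 6 root libraries at 10 or more, and the remaining 13 reached 10 in at least 3 root libraries and entered the test. The 14 genes below the filter are not among the tested ones, so no count over the 13 stands for the whole set. Of the 13, TraesCS2B02G515400 and TraesCS3A02G509900 passed the filter through the control roots alone.

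**Figure D2:**
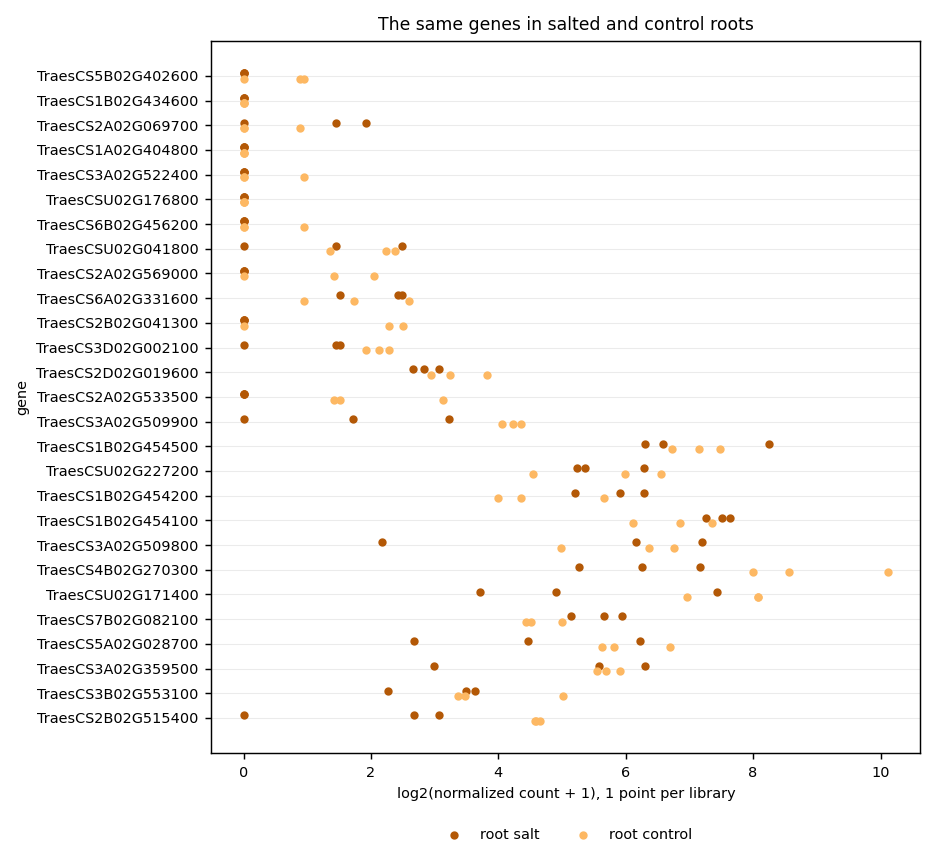
Normalized counts of the same 27 genes in roots as log2(normalized count + 1), with 1 point per library, 3 salt-treated libraries (dark orange) above 3 control libraries (light orange), rows in the same order as for shoots. The upper 14 rows lie low in both groups, and in the lower 13 the salt-treated roots mostly overlap the control roots.

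The 7 genes near 0 in roots were measured in control shoots alone. TraesCS5B02G402600 on chromosome 5B held 0 in all 3 salt-treated shoots and 199, 90.5 and 61.6 in control shoots, with 0 in the salt-treated roots and at most 0.931 in the control roots. TraesCS1B02G434600 held 1.23, 0 and 1.07 in salt-treated shoots, 86.2, 84.7 and 73.1 in control shoots and 0 in all 6 root libraries. TraesCS1A02G404800 held 0, 0 and 1.07 in salt-treated shoots, 35.7, 39.1 and 87.6 in control shoots and 0 in all 6 root libraries. These genes had reads in no group but the control shoots beyond stray ones. TraesCSU02G176800, on the unplaced scaffolds, was also at 0 in every root library and held 2.46, 0 and 2.13 under salt against 26.0, 42.8 and 36.1 in control shoots. TraesCS3A02G522400, TraesCS6B02G456200 and TraesCS2A02G069700 completed the group, the last with up to 2.78 in the salt-treated roots.

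The 7 genes with low root values were TraesCSU02G041800, TraesCS2A02G569000, TraesCS6A02G331600, TraesCS2B02G041300, TraesCS3D02G002100, TraesCS2D02G019600 and TraesCS2A02G533500. TraesCS2D02G019600 kept a low level in every root library, with 5.35, 7.42 and 6.11 in salt-treated and 6.71, 13.2 and 8.41 in control roots, and held 1.23, 0 and 0 in salt-treated and 66.7, 41.8 and 32.9 in control shoots. TraesCS2A02G533500 was at 0 in the 3 salt-treated roots against 1.68, 7.78 and 1.87 in the control roots, and at 0, 2.46 and 0 in salt-treated against 32.5, 29.5 and 23.4 in control shoots. The root groups of that gene and of TraesCS3D02G002100 did not overlap, but at a few reads each no difference can be read from them. TraesCS6A02G331600 had 4.59, 1.85 and 4.37 in salt-treated roots and 5.04, 2.33 and 0.931 in control roots, which overlap.

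Among the 13 genes tested in roots, 0 were called lower and 0 were called higher by limma with calls made at a Benjamini-Hochberg adjusted p below 0.01 and a 2-fold or larger change. Over all 44737 genes tested in roots, 2.3% were called lower and 1.17% higher. At an unadjusted p under 0.05, 5 of the 13 passed, 4 lower and 1 higher, where 18.7% of all genes tested passed as lower and 12.8% as higher. The fitted log2 fold change was below 0 in 10 of the 13 (76.9%), where 51.4% of all genes tested were below 0. Its median was −0.82, against −0.02 over all genes tested. The salt-treated roots lay wholly below the control roots in 3 of the 13 and wholly above in 1, where 20.2% and 17.3% of all genes tested did so. Without TraesCS2B02G515400 and TraesCS3A02G509900, a count added after seeing the data, 11 genes were left. Of these, 8 (72.7%) had a log2 fold change below 0, with a median of −0.76. Of the 11, 2 (18.2%) passed the unadjusted threshold as lower and 1 (9.09%) as higher, near the shares over all genes. The groups lay wholly below in 1 and wholly above in 1. In the same roots, the 29 genes known from dividing cells summed to 2635 to 4449 under salt and 5437 to 6892 in controls. The 14 genes of the flower and seed list summed to 1501 to 2162 under salt and 1199 to 1319 in controls. Neither list overlapped between the root groups, and their part in the members' values was not tested. The flower and seed list was higher in every root library than in any shoot library, so it is not read as a mark of flower or seed. The 13 are few and were fitted with 3 libraries a group, so the intervals of the single genes are wide. They share the same root libraries and include neighbouring genes, so they are not independent and the shares are a description.

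TraesCS4B02G270300, on chromosome 4B from 546579103 to 546580924, held 37.5, 75.1 and 143 in salt-treated roots against 255, 377 and 1112 in control roots. All 3 salt-treated roots were below all controls, and limma fitted a log2 fold change of −2.66 ± 0.64 (± standard error, 95% interval −4.15 to −1.18, limma adjusted p = 0.0339). In shoots it was at 0 in every salt-treated library and at 116, 68.5 and 121 in the controls. This was the lowest adjusted p of the 13 in roots. It ranged from 0.00553 to 0.105 over the alternatives, and the gene was called lower in roots when all 12 libraries shared 1 fit.

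TraesCS3A02G509900 and TraesCS2B02G515400 were low in roots and entered the test through the control roots alone. TraesCS3A02G509900 held 2.30, 8.33 and 0 in salt-treated roots and 19.4, 15.6 and 17.7 in control roots. TraesCS2B02G515400 held 5.38, 7.40 and 0 in salt-treated roots and 22.8, 24.2 and 23.1 in control roots. The root groups of both did not overlap, neither gene was called by limma, and a difference was built into their being tested, so no change is read from them. Control shoots and control roots were nearly level for TraesCS2B02G515400, at 30.9, 25.7 and 24.4 in control shoots.

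TraesCSU02G171400, on the unplaced scaffolds, was higher in control roots than in control shoots. Salt-treated roots held 29.1, 12.1 and 171 and control roots 268, 270 and 124, while salt-treated shoots were at 0 and control shoots held 91.1, 27.6 and 23.4. Root salt replicate 3 lay within the control range and the other salt-treated roots below it. The root log2 fold change was −2.36 ± 0.87 (± standard error, limma adjusted p = 0.112), and without root salt replicate 3 it was −3.40 with an adjusted p of 0.00721 by limma, so this 1 library decided the call.

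In 3 further genes the salt-treated roots spread widely. TraesCS5A02G028700 held 5.38, 73.7 and 21.0 in salt-treated roots and 55.6, 48.4 and 103 in control roots, with a log2 fold change of −1.60 (95% interval −3.52 to 0.32). TraesCS3A02G359500 held 6.91, 47.1 and 77.8 in salt-treated and 50.5, 46.0 and 59.2 in control roots. TraesCS3A02G509800 held 70.5, 146 and 3.50 in salt-treated and 107, 81.8 and 30.6 in control roots. Salt-treated replicates 1 and 3 lay below the control roots in TraesCS5A02G028700, replicate 1 alone in TraesCS3A02G359500 and replicate 3 alone in TraesCS3A02G509800. The root log2 fold change of TraesCS3A02G359500 was −0.76, and 0.23 without root salt replicate 1, while that of TraesCS3A02G509800 was −0.86, and 0.65 without root salt replicate 3. TraesCS3B02G553100 held 3.83, 10.2 and 11.4 in salt-treated and 10.1, 31.2 and 9.27 in control roots, with overlapping groups and a log2 fold change of −0.82 (95% interval −2.24 to 0.60).

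TraesCS7B02G082100 was the gene of the 13 whose salt-treated roots all lay above the control roots. It held 49.7, 34.3 and 60.2 in salt-treated roots against 21.8, 31.1 and 20.6 in control roots, a log2 fold change of 0.93 ± 0.32 (± standard error, limma adjusted p = 0.0916). The same gene held 2.46, 0 and 1.07 in salt-treated shoots and 76.5, 31.4 and 26.6 in control shoots. It lies on chromosome 7B from 92556138 to 92563762, and its neighbour TraesCS7B02G082000 ends before its start on the opposite strand. That neighbour held 262, 457 and 418 in salt-treated and 805, 725 and 988 in control shoots. The annotated spans of the pair do not overlap, but the libraries do not mark strand, so reads of any overlapping ends could not be told apart.

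The longest run of members was on chromosome 1B. TraesCS1B02G454100 (670034245 to 670037207), TraesCS1B02G454200 (670142374 to 670144629) and TraesCS1B02G454500 (670158858 to 670161009) stand within 5 identifier steps of one another, all on the plus strand. TraesCS1B02G454100 held 0 in the 3 salt-treated shoots and 259, 124 and 74.4 in control shoots, with 181, 199 and 153 in salt-treated roots and 163, 114 and 68.2 in control roots. TraesCS1B02G454200 held 0 in the 3 salt-treated shoots and 236, 143 and 79.7 in control shoots, with 58.9, 77.0 and 35.8 in salt-treated roots and 49.5, 19.4 and 14.9 in control roots. TraesCS1B02G454500 held 0, 0 and 1.07 in salt-treated shoots and 468, 144 and 149 in control shoots, with 78.0, 94.6 and 302 in salt-treated roots and 141, 178 and 105 in control roots. All 3 genes were thus clearly read in salt-treated roots, while each salt-treated shoot library gave at most 1 read. In roots the groups overlapped, with log2 fold changes of 0.70 (95% interval −0.05 to 1.45), 1.13 (−0.03 to 2.28) and −0.08 (−1.25 to 1.09) in the same order. The sign of the last depends on the libraries used, and it was 0.29 without root salt replicate 1.

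The run is wider than the rule shows. Between and beside these members, TraesCS1B02G454000 held 0, 3.69 and 5.34 in salt-treated shoots and 91.1, 58.9 and 42.5 in control shoots. TraesCS1B02G454400 held 3.69, 3.69 and 1.07 in salt-treated and 146, 68.5 and 76.5 in control shoots, and TraesCS1B02G454600 held 3.69, 1.23 and 5.34 in salt-treated and 76.4, 49.4 and 43.5 in control shoots. Each of these neighbours exceeded the limit of 3 in at least 1 salt-treated shoot library. Their salt-treated roots held 62.7 to 85.5, 29.7 to 45.4 and 134 to 162, against 35.5 to 73.8, 45.8 to 50.4 and 72.9 to 221 in control roots, each pair in the order of the genes. The root groups overlapped in TraesCS1B02G454000 and TraesCS1B02G454600, while in TraesCS1B02G454400 all salt-treated roots lay below the control roots, and no test of these neighbours was made. All 6 genes of the run are without a description and had their highest control shoot value in replicate 1. On each side, the nearest listed gene with reads in shoots was still read under salt. TraesCS1B02G453700 held 293 to 303 in salt-treated and 241 to 307 in control shoots, and TraesCS1B02G454800 held 42.3 to 72.6 in salt-treated and 83.1 to 105 in control shoots. No gene was listed between TraesCS1B02G453700 and TraesCS1B02G454000. TraesCS1B02G454700, which stands before TraesCS1B02G454800, held 0 in every shoot library and cannot be judged, so the exact ends of the run are not shown. If genes of the run were near-identical, shared reads could be split between them by the estimation, and their likeness was not examined.

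**Figure D3:**
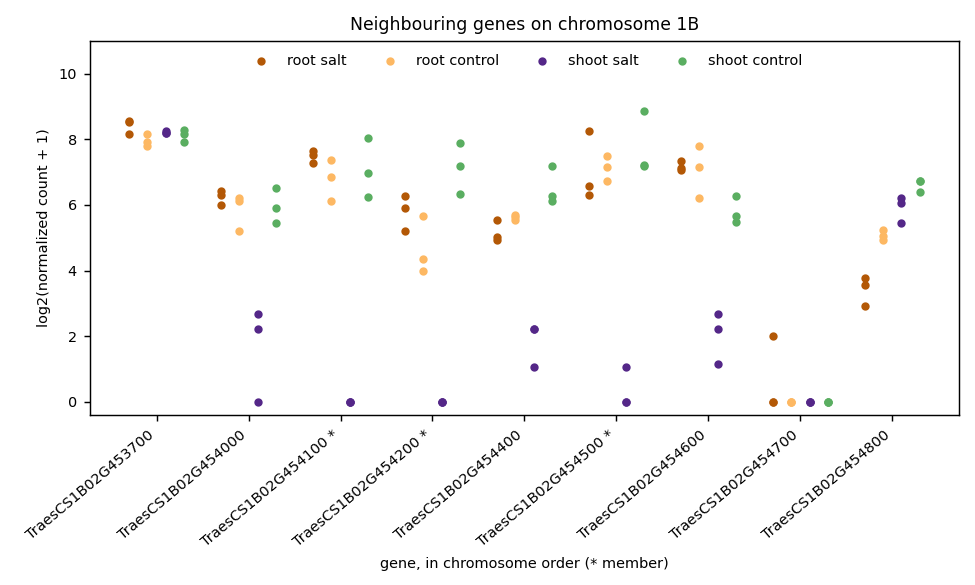
Normalized counts of neighbouring genes on chromosome 1B, in chromosome order, as log2(normalized count + 1) with 1 point per library for salt-treated roots, control roots, salt-treated shoots and control shoots. From TraesCS1B02G454000 to TraesCS1B02G454600 the salt-treated shoots (purple) lie at 0 to 5.34 normalized counts while the other 3 groups lie at 14.9 or above, and TraesCS1B02G453700 on the left shows no such gap.

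TraesCSU02G227200, on the unplaced scaffolds, had values of the same kind. It held 0 in the 3 salt-treated shoots and 456, 130 and 107 in control shoots, with 36.7, 39.9 and 76.9 in salt-treated and 93.3, 62.2 and 22.4 in control roots. The root groups overlapped and the log2 fold change was −0.07 (95% interval −1.34 to 1.20), which was 0.36 without root control replicate 1. Its place on a chromosome is not given, so its neighbours by identifier are not described singly.

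TraesCS3A02G509800 (730177399 to 730178426) and TraesCS3A02G509900 (730207604 to 730208730) are adjacent on the minus strand of chromosome 3A and form the other pair of neighbouring members. TraesCS3A02G509900 held 1.23, 0 and 0 in salt-treated shoots and 522, 405 and 440 in control shoots, and TraesCS3A02G509800 held 0, 1.23 and 0 in salt-treated and 117, 151 and 118 in control shoots. Both were near 0 in the salt-treated shoots, and in control roots TraesCS3A02G509800 was higher than TraesCS3A02G509900. TraesCS3A02G509800 had 73.4 ± 71.3 in salt-treated and 73.1 ± 38.9 in control roots (SD, n = 3 each), and TraesCS3A02G509900 had 3.54 ± 4.30 in salt-treated and 17.5 ± 1.89 in control roots. No difference between the pair in root response to salt is read from these means. TraesCS3A02G509900 was tested through the control roots alone, and the salt-treated roots of TraesCS3A02G509800 spread from 3.50 to 146. Next to the pair, TraesCS3A02G510000 held 0 in the 3 salt-treated shoots and 8.15, 6.69 and 8.46 in control shoots. The gene after it, TraesCS3A02G510100, held 2850 to 5412 in salt-treated and 5258 to 9632 in control shoots. On the other side, TraesCS3A02G509600, described as a peroxidase, was read in roots and held at most 3.81 in any shoot library.

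TraesCS1A02G404800 on chromosome 1A (568122035 to 568123108) and TraesCS1B02G434600 on chromosome 1B (658922853 to 658923969), both on the plus strand, each stand behind a pair of genes read in shoots of both treatments and before genes read in few or no libraries but control shoots. On 1B, TraesCS1B02G434500 held 512 to 539 in salt-treated and 369 to 456 in control shoots, and the gene before it, TraesCS1B02G434400, held 249 to 322 in salt-treated shoots and 288 or more in control shoots. On 1A, TraesCS1A02G404700 held 460 to 471 in salt-treated and 337 to 405 in control shoots, and TraesCS1A02G404600 held 1268 to 3432 in salt-treated and 1519 to 2808 in control shoots. After the member along 1B, TraesCS1B02G434700, TraesCS1B02G434800 and TraesCS1B02G435100 were at 0 in all salt-treated shoots and in all roots. They held 1.63, 8.60 and 25.4, then 11.4, 10.5 and 25.4, then 14.7, 14.3 and 59.2 in control shoots. Along 1A, TraesCS1A02G405300 held 1.23, 0 and 3.26 in salt-treated and 19.4, 21.9 and 24.2 in control shoots, with 0 in all roots. Control shoot replicate 3 held the highest value of TraesCS1A02G404800 and of each of these 4 genes after the members, while TraesCS1B02G434600 was highest in replicate 1. The files pair no genes between the genomes, so no likeness beyond these values was examined.

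**Figure D4:**
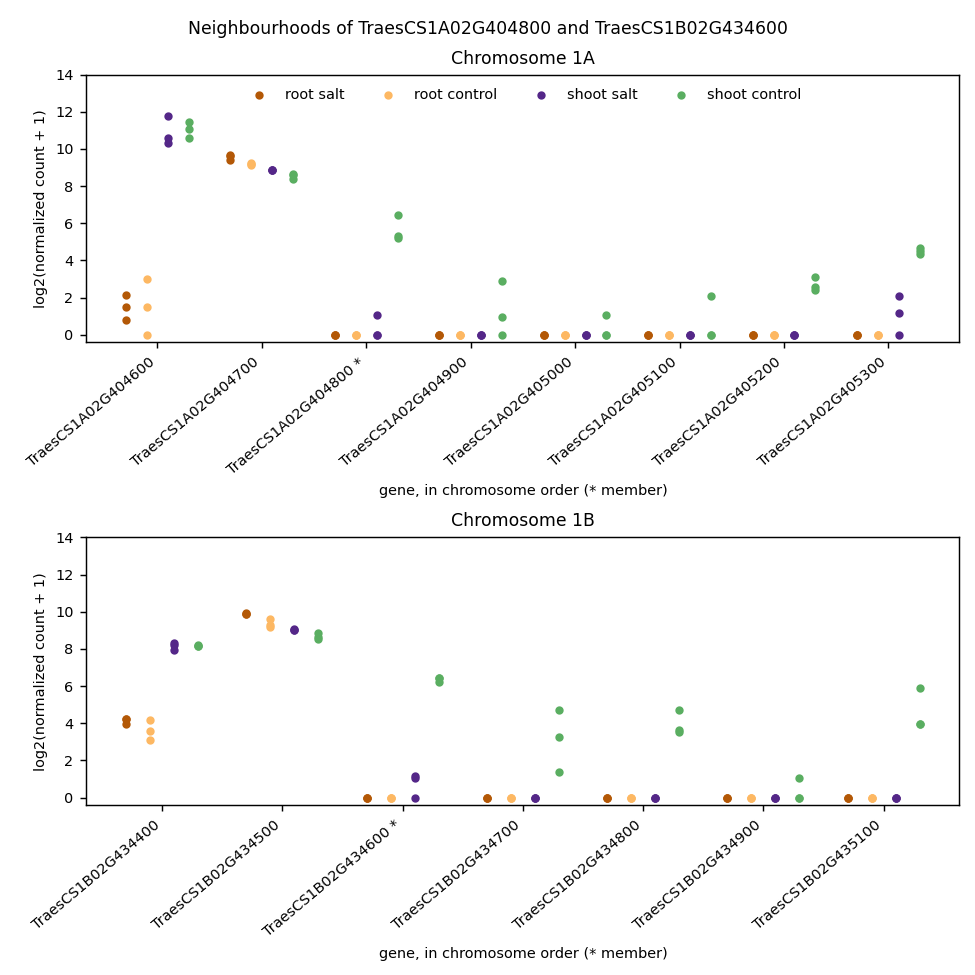
Normalized counts around TraesCS1A02G404800 (top) and TraesCS1B02G434600 (bottom), in chromosome order, as log2(normalized count + 1) with 1 point per library for the 4 groups. In both rows the gene just before the member lies high in all groups, while the member and the genes after it have reads in control shoots (green) and lie at 0 in roots and at 0 to 3.26 in salt-treated shoots (purple).

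Further members had a neighbour that was low in the same group. TraesCS5B02G402500, next to TraesCS5B02G402600, held 2.46, 1.23 and 5.35 in salt-treated and 95.9, 70.4 and 51.9 in control shoots and 0 in all roots. TraesCS2A02G533700, 2 identifier steps from TraesCS2A02G533500, held 0 in the 3 salt-treated shoots and 22.8, 31.4 and 19.1 in control shoots. TraesCS2B02G041200, next to TraesCS2B02G041300, held 0, 17.2 and 3.20 in salt-treated and 63.4, 153 and 131 in control shoots. Beside TraesCS3A02G522400, TraesCS3A02G522500 held 6.16, 3.69 and 8.54 in salt-treated and 107, 77.0 and 80.8 in control shoots. TraesCS6A02G331300, 3 steps from TraesCS6A02G331600 and described as a glycosyltransferase, an enzyme class that attaches sugars to other molecules, held 16.0, 45.5 and 28.8 in salt-treated and 275, 128 and 55.2 in control shoots. That gene was also low in salt-treated roots, at 2.29, 16.7 and 2.62 against 111, 193 and 111 in control roots.

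Counted over all members, 176 genes that are not members lay within 5 identifier steps of one, and 95 of them had a control shoot mean of at least 10. Of these 95, 16 (16.8%) had a salt-treated shoot mean 4-fold or more below the control mean with no overlap between the groups. Over all 44126 genes with such a control mean the share was 2.69%. This criterion was set after the neighbours' values had been seen, and neighbours of 1 run are not independent, so the shares are a description. At least 1 such neighbour or fellow member stood beside 15 of the 27 members, and beside the other 12 there was none. Some of the 12, such as TraesCS5A02G028700 and TraesCS2D02G019600, had no neighbour with a control shoot mean of 10 to judge by. The unplaced members are all among the 12, and their neighbours were taken by identifier number, which gives no place on a chromosome. TraesCS4B02G270300, TraesCS2B02G515400 and TraesCS6B02G456200 were among the 12.

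By genome, 10 members carry identifiers of the A genome, 11 of B, 2 of D and 4 of the unplaced scaffolds, and they lie on 14 chromosomes. Chromosomes 1B and 3A hold 4 members each. Among the 35349 genes with at least 20 in all control shoots, 46.5% were on A, 45.9% on B, 6.65% on D and 0.931% unplaced. For the members these shares were 37.0%, 40.7%, 7.41% and 14.8%. Of the 23 members with a place on a chromosome, 18 (78.3%) lay in the outer 10% at either end, with the greatest gene end in the tables taken as the chromosome's length. Among the 15144 genes of the tables with a place and at least 20 in all control shoots, 32.0% did. Members of 1 run share their place, so these are fewer than 23 independent places. The members spanned 627 to 10312 bases from start to end, with a median of 1799, against 2511 over the genes of the tables.

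The small share of the D genome is a feature of the whole table. Only 11.0% of the 20700 D genes held at least 20 in all salt-treated shoots and 11.4% in all control shoots, against 55.1% and 55.1% of A genes and 54.0% and 53.9% of B genes. The D genes took 5.40% to 6.42% of the summed counts in salt-treated shoots and 6.76% to 9.08% in control shoots. In roots their share was 2.61% to 2.69% under salt and 2.50% to 2.79% in controls. The label names Triticum aestivum, the bread wheat that carries all 3 genomes, and the D genes were thus low in all 4 groups, with a median gene mean of 0.986 in control shoots against 45.8 for A and 42.2 for B. What this comes from was not tested. It bears on the members on D, since reads listed there could stem from a copy elsewhere. The neighbours of TraesCS2D02G019600 within 5 steps, 2 in number, held at most 2.86 in any library, while TraesCS3D02G002200, next to TraesCS3D02G002100 (0, 0 and 0 in salt-treated and 78.1, 37.1 and 36.1 in control shoots), held 44.3 to 86.1 in salt-treated and 64.7 to 184 in control shoots.

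**Figure D5:**
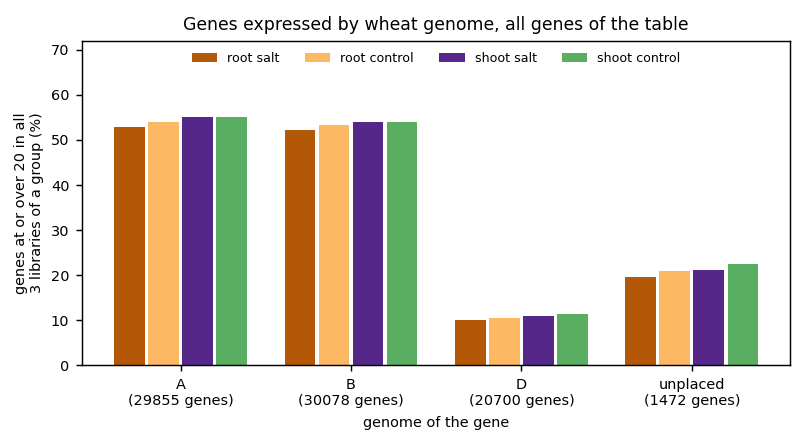
Percentage of genes that reached 20 normalized counts in every library of a group, for genes of the A, B and D genomes and the unplaced scaffolds, 1 bar per group. A and B stand between 52.1% and 55.1% and D between 10.0% and 11.4% in every group.

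A pair of described genes met the same limits beside the 27. TraesCS1A02G342000, described as a peroxidase, a class of enzymes that oxidise phenolic compounds with hydrogen peroxide, held 0, 0 and 1.07 in salt-treated shoots and 122, 140 and 78.5 in control shoots. It held 66.6, 161 and 295 in salt-treated roots and 781, 1203 and 1418 in control roots, with no overlap. TraesCS2B02G565000, described as a serine/threonine-protein kinase, an enzyme that phosphorylates other proteins, was at 0 in salt-treated shoots and in all roots and held 38.8, 35.0 and 37.7 in control shoots. The first had root values lower under salt, as in TraesCS4B02G270300, and the other was near 0 in roots, as were 7 of the undescribed genes. With the limits reversed, 61 undescribed genes were at or over 20 in all salt-treated shoots and at or under 3 in all control shoots, and in roots 27 undescribed genes were switched off and 16 switched on by the same limits.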

How the data were processed

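RNA-seq of 12 libraries was analysed, 3 per organ and treatment. The authors trimmed reads with Trimmomatic (0.36), estimated transcript abundance with Salmon (0.12.0) on Ensembl Plants transcripts, took it to the gene level and normalized it with DESeq2. The deposited signal is this normalized count, an estimate without known counting error, so precision rests on the 3 libraries per group. The deposited comparison tables were used only for descriptions and positions, which count from 1 on the IWGSC assembly. Their fold changes and p-values, the authors' own tests, were not used. The start and end values in them come from the annotation.

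Members were found by the rule given in the results. For roots, log2(normalized count + 1) of genes with at least 10 in at least 3 of 6 libraries was fitted with limma 3.58.1 (R 4.3.3) allowing the variance to follow the mean, and p-values from the whole table were adjusted by the Benjamini-Hochberg method. Calls needed an adjusted p below 0.01 and a change of 2-fold or more, as in the paper. The paper's own calls came from DESeq2 and were more numerous in roots than the limma calls here. Fold changes on this scale understate low genes. The fit was tested on simulated data. Figures were drawn with matplotlib 3.10.9. Alternatives were other limits, pseudocounts, filters, scalings and thresholds, a shared fit, a block and leaving out single libraries. Genes to be named were the 10 members with the highest control shoot means, the 5 with the highest control root means, members called in roots, runs of neighbouring members, genes nearest the limits and the 5 members whose control shoots differed most. The other members, and neighbours outside the runs, were named after their values were seen. The series text calls the replicates biological, and whether they came from separate pots is not given. The members and lists were chosen with earlier results of these data known. Gene identifiers matched 0 entries of the RefSeq table at hand.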

Additional observations from a re-analysis of the deposited data

Results flagged for a closer look

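In TraesCS7B02G082100 every salt-treated root library lay above every control root library, while every salt-treated shoot library lay below every control shoot library. The root log2 fold change was 0.93 and was not called (limma adjusted p = 0.0916), and 17.3% of all genes tested in roots lay wholly above in the same way. The shoot direction was fixed by the choice of the gene, and the difference between the organs was not tested.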

How the results depend on the processing

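The number of genes under the rule, 27, was 9 with a limit of 1 in salt-treated shoots, 54 with a limit of 5, 61 with a limit of 10 in control shoots and 9 with a limit of 50. Leaving out single shoot libraries, which can only add genes to the rule, gave 31 to 53. It was 22 with libraries scaled to the same total, 21 of them members, and 25 when that scaling left out the 100 most abundant genes, a setting added after seeing the data. The count of members called lower in roots, 0, was 1 at an adjusted p threshold of 0.05, 1 with all 12 libraries in the fit and 1 with the replicate number as a block, each time TraesCS4B02G270300. It ran from 0 to 1 over the fits without 1 root library, the 1 being TraesCSU02G171400, and the count called higher was 0 throughout. All root calls, 1553, became 5354 at a threshold of 0.05, 3707 with 12 libraries and 285 with the replicate block, and ran from 0 to 2526 over the fits without 1 library. The deviations of same-numbered root libraries correlated at 0.03, 0.13 and 0.00. Salt replicates 1 and 2 correlated best with the control of the same number, and salt replicate 3 with control replicate 1, at 0.05. With 3 libraries a group these values cannot decide whether the replicate numbers pair the libraries, and the main fit used no pairing.

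Scaling to the same total turned the root log2 fold changes of TraesCS1B02G454500 and TraesCSU02G227200 to 0.06, and it moved the median of all genes from −0.02 to 0.12. Without single libraries the root log2 fold change ran from −0.68 to 0.29 for TraesCS1B02G454500, from −0.65 to 0.36 for TraesCSU02G227200, from −1.43 to 0.23 for TraesCS3A02G359500 and from −1.87 to 0.65 for TraesCS3A02G509800. TraesCS2B02G515400 and TraesCS3A02G509900 were not tested without a control root library. Of 183 values of single genes under alternatives, 168 kept direction and call. Settings that changed a threshold alone reused the main fit, so their directions could not change. No member was called in the main fit, so a kept call means that the gene stayed uncalled. Genes at a few reads per library give no bound on change in roots.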
